A study of Mus musculus with 6 samples.

Results

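The genes described here are 10 leukocyte chemokine receptors, Ccr2, Ccr4, Ccr6, Ccr7, Ccr8, Ccr9, Cxcr3, Cxcr4, Cxcr5 and Cxcr6, chosen by symbol from the 23268 genes of the deposited expression table. All 10 were found. The cells were group 2 innate lymphoid cells (ILC2s), lymphocytes that make type 2 cytokines without an antigen receptor, taken by sorting from colons of C57BL/6 mice that were 6 to 8 weeks old. Control mice drank water and the others drank 3% dextran sulfate sodium (DSS), a chemical that injures the colonic epithelium, each for 6 days. RNA was sequenced in 3 libraries per group, and levels are given as FPKM, fragments scaled by gene length and library size, a scale on which genes of different length can be compared. The labels name no reporter or other allele and do not say whether a library came from 1 mouse or several. Each p-value therefore speaks only of the variation among these libraries, which may be technical.

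Chemokine receptors are membrane-spanning receptors that signal through inhibitory G proteins and steer leukocytes along gradients of small secreted proteins, the chemokines. Each receptor reads a small set of ligands, and the receptors that a lymphocyte carries set where it settles. CCR9 and CCR6 are known for the intestine, CCR7 and CXCR5 for lymphoid tissue, CCR4, CCR8 and CXCR6 for tissue lymphocytes of barrier organs, CXCR3 for sites of interferon response, and CXCR4 and CCR2 for bone marrow and its exits. Arrestins and G protein-coupled receptor kinases end the signal.

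Depth ran from 12670662 to 23119390 fragments in control libraries and from 9962415 to 18951020 in DSS libraries. Libraries did not group by treatment alone. DSS replicate 3 and control replicate 3 lay apart on the first principal component (scores 70.48 and 28.31, against −33.03 to −10.87), and DSS replicate 1 on the second (−57.93). Olfactory receptor genes, a class with no known use in lymphocytes, averaged 0.962 FPKM in DSS replicate 3 and 0.583 in control replicate 3, against 0.0342 to 0.182 elsewhere. All 12 ILC2 marker genes, among them Gata3, Il1rl1, Il17rb, Klrg1 and Rora, were at 1 FPKM or more in every library, with a summed level of 3988 to 4303 in control and 3213 to 4100.2 in DSS libraries. Ptgdr2, a prostaglandin D2 receptor gene often used to mark ILC2s, was at 0.885 FPKM or lower in every library. Genes known from other cells were present too. Cytotoxic Nkg7 measured 248 to 312 in control and 72.7 to 274 in DSS libraries, and the ILC3 cytokine gene Il22 114 to 219 and 48.7 to 262. Each was far above the other markers of its list. Gzma, the next of the ILC1 and NK cell markers, measured 20.0 to 36.9 and 21.8 to 41.6. Neutrophil markers summed to 2.69 to 6.29 in control and 66.96 to 102 in DSS libraries. Of the 7, 6 were tested and S100a8, S100a9 and Retnlg rose (limma adjusted p = 8.56e-04, 8.45e-05 and 0.0452), where 0.0738% of all tested genes did. By voom 0 of the 6 passed. The call of Retnlg was also lost without DSS replicate 3 (limma adjusted p = 0.0729) and without control replicates 1, 2 and 3 (0.313, 0.314 and 0.162). Mmp9 had a log2 change of −0.36, and Ly6g, which defines neutrophils, was at 0.414 FPKM or lower in every library. In bulk samples, fewer cells that carry a transcript and less of it per cell cannot be told apart.

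Transcripts of the 10 receptors were dominated by Ccr8 and were lower in total after DSS. Their summed FPKM was 4089, 4073 and 3569.6 in control replicates 1, 2 and 3 and 2135, 1872 and 1788 in DSS replicates 1, 2 and 3. Means were 3911 ± 295 (SD, n = 3) and 1931 ± 181 (SD, n = 3). Every DSS library was below every control library, and the control mean was 2.02 times the DSS mean. Ccr8 made up 74.1% ± 2.08 of the sum in control and 74.1% ± 1.87 in DSS libraries, and Cxcr6 15.2% ± 1.70 and 15.4% ± 0.272 (SD, n = 3 each). Without Ccr8, the sums of the other 9 were 989 to 1027 and 484 to 507. A sum of this kind had no test.

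**Figure D1:**
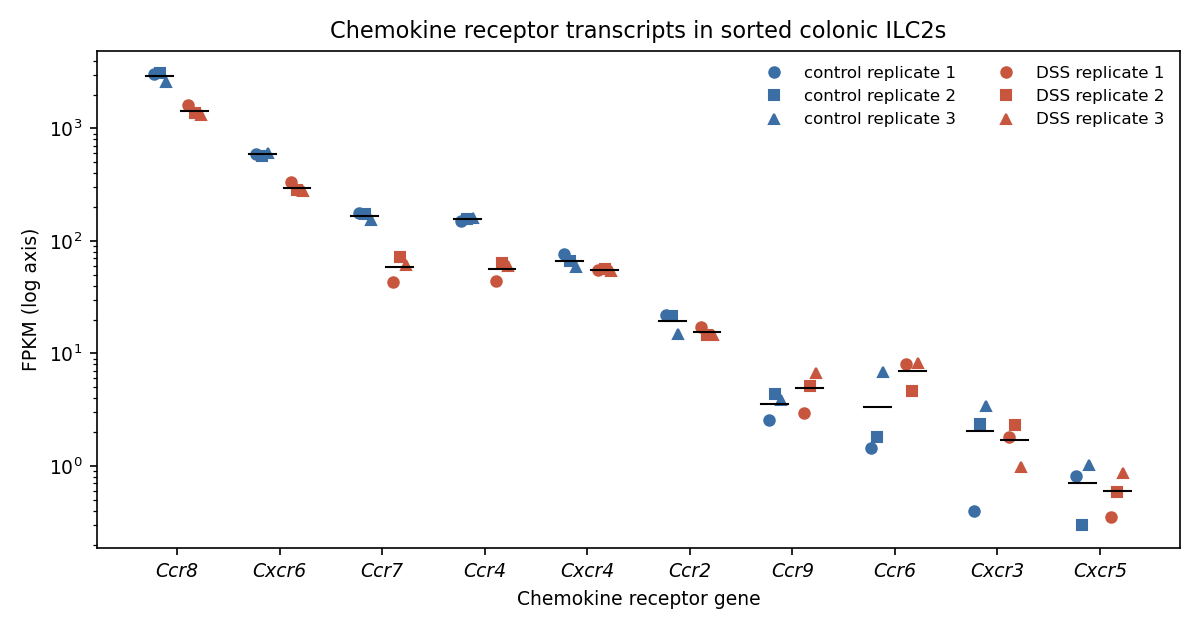
FPKM on a log axis for each of the 10 receptor genes, with control libraries in blue and DSS libraries in red, 1 symbol per replicate and a black bar at the mean of 3. Ccr8, Cxcr6, Ccr7 and Ccr4 lie lower in all 3 DSS libraries, while the 4 least expressed genes scatter below 10 FPKM in both groups.

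In control libraries the order of mean levels was Ccr8, Cxcr6, Ccr7, Ccr4, Cxcr4, Ccr2, Ccr9, Ccr6, Cxcr3 and Cxcr5. Each of the first 2 stood apart from the next, with Ccr8 4.93 times as high as Cxcr6 and Cxcr6 3.52 times as high as Ccr7. Ccr7 and Ccr4 overlapped (ratio 1.08). Ccr4 was 2.32 times Cxcr4, and Cxcr4 3.41 times Ccr2, without overlap. Among Ccr9, Ccr6, Cxcr3 and Cxcr5, neighbours in the order overlapped. In DSS libraries Ccr7, Ccr4 and Cxcr4 were neighbours whose ranges overlapped, with mean ratios of 1.05 and 1.01. Thus Cxcr4, which was 43.2% ± 7.06 of Ccr4 in control libraries, was 101% ± 22.3 of it in DSS libraries (SD, n = 3 each).

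Ccr8, the receptor for CCL1 and CCL8, was among the most abundant of all transcripts, ranking 12th to 17th of 23268 genes in control libraries and 40th to 58th in DSS libraries. Its gene lies on chromosome 9 (mm10, 120092114 to 120094906, plus strand). Cxcr6, the receptor for the membrane-bound chemokine CXCL16, ranked 110th to 127th and 194th to 243rd. It lies on chromosome 9 (123806475 to 123811760, plus strand) inside the gene Fyco1, which is read from the opposite strand, with 0 bp of exon shared. Ccr4, the receptor for CCL17 and CCL22, lies on chromosome 9 (114490316 to 114504916, minus strand), and Ccr7, the receptor for CCL19 and CCL21, on chromosome 11 (99144196 to 99155077, minus strand). The libraries do not mark the strand. Promoter sequence from RefSeq (GRCm38.p6) was matched for 8 of the 10 genes and not for Ccr7 and Cxcr5. The 250 bases before the start site are shown for the 3 matched genes with the lowest log2 changes, and capitals mark any match to the 5 motifs searched on both strands.
Ccr8, chr9:120091883-120092132, plus strand: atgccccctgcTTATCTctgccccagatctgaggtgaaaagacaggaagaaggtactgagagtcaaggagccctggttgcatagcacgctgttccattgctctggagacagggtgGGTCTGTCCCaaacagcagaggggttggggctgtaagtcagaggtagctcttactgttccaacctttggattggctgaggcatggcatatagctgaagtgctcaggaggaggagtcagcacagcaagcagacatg
Cxcr6, chr9:123806227-123806476, plus strand: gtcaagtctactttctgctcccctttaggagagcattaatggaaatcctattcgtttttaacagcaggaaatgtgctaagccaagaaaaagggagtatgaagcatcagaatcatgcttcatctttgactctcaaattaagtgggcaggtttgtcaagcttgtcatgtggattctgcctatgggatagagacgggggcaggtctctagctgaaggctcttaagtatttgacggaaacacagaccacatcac
Ccr4, chr9:114496545-114496794, minus strand: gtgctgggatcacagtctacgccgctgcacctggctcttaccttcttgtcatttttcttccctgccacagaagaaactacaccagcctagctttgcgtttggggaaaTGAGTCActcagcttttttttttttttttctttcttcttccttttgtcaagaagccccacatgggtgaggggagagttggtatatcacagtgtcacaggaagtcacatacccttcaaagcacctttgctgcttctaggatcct

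The motifs searched are named for the factors that bind such letters, and they were a kappaB-like, an AP-1-like, a GATA-like, a KLF-like (GGGNGGGG) and a cyclic AMP response element (TGACGTCA). The Ccr8 window held a match to the GATA-like motif, AGATAA, at bases 12 to 17 and a kappaB-like match at bases 116 to 125, counted from the 5′ end of the window, both on the opposite strand. The Ccr4 window held 1 match to the AP-1-like motif, TGACTCA, at bases 108 to 114, also on the opposite strand, and its RefSeq start site lies inside the span that GENCODE gives the gene. The Cxcr6 window held none of the 5 in these 250 bases. The Ccr8 and Cxcr6 windows also reach past the GENCODE starts of their genes, ending at 120092132 and 123806476 against starts of 120092114 and 123806475. Of 32851 promoter windows of the same length, 17.63% held the kappaB-like, 4.46% the AP-1-like, 9.99% the GATA-like, 30.8% the KLF-like and 1.55% the cyclic AMP motif. No motif was present in all 3 windows.

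Of the 10 genes, 9 had a mean of at least 1 FPKM over the 6 libraries and were tested among 12187 genes with limma on log2(FPKM + 1), with Benjamini-Hochberg adjustment over all genes. Cxcr5 was below this level. Ccr4 and Ccr7 fell in DSS (limma adjusted p under 0.05), 2 of 9, where 0.148% of all tested genes fell, and none of the 9 rose, where 0.0738% of all did (0.222% in either direction). Of the 9, 7 had a lower and 2 a higher value, and for 5 every DSS library lay below every control library, which held for 9.6% of all tested genes. For none did every DSS library lie above, which held for 6.35%. The median log2 change was −0.30 over the 9, 0.03 over all tested genes and −0.08 over those with a mean of at least 5 FPKM. The 10 receptors were chosen with results of these data known, so these shares describe them and test nothing about the family.

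**Figure D2:**
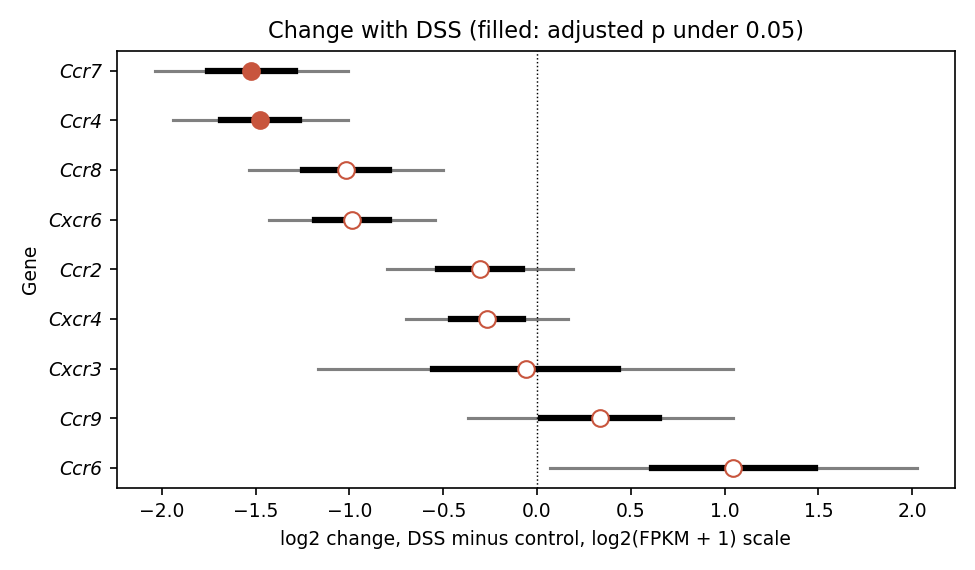
Log2 change of each tested receptor (DSS minus control, log2(FPKM + 1) scale), with the standard error as a thick line and the 95% interval as a thin line, and filled points for an adjusted p under 0.05. Ccr7 and Ccr4 are filled at −1.52 and −1.48, Ccr8 and Cxcr6 are open near −1, and Ccr6 is the furthest to the right at 1.05.

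Ccr4 measured 151, 157 and 158 FPKM in control replicates 1, 2 and 3 and 43.8, 63.8 and 60.3 in DSS replicates 1, 2 and 3. The control libraries were close to each other and no DSS library came near them. The mean went from 155 ± 4.06 to 55.9 ± 10.7 (SD, n = 3), 36.0% of the control level, with a log2 change of −1.48 ± 0.21 (SE, 95% interval −1.94 to −1.01, limma adjusted p = 0.0426).

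Ccr7 measured 178, 172 and 152 FPKM in control and 43.0, 71.6 and 61.5 in DSS replicates 1, 2 and 3. Again the groups were well apart, and DSS replicate 1 was lowest, as for Ccr4. The mean went from 167 ± 13.7 to 58.7 ± 14.5 (SD, n = 3), 35.1% of the control level, with a log2 change of −1.52 ± 0.23 (SE, 95% interval −2.04 to −1.01, limma adjusted p = 0.0426). Among the 12187 tested genes, Ccr7 had the 22nd and Ccr4 the 32nd lowest log2 change. Both genes kept nearly the same level relative to each other, Ccr4 being 84.6% to 104% of Ccr7 in control and 89.1% to 102% in DSS libraries.

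Ccr8 measured 3061, 3084 and 2562 FPKM in control and 1628, 1369.9 and 1304 in DSS replicates 1, 2 and 3. The lowest control library stood well above the highest DSS library. Means were 2902 ± 295 and 1434 ± 172 (SD, n = 3), 49.4% of the control level, and the log2 change was −1.02 ± 0.23 (SE, 95% interval −1.53 to −0.50), which did not pass (limma adjusted p = 0.144). These values rest on 15470 to 84099 fragments per library, so counting error is small beside the spread between libraries.

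Cxcr6 measured 595, 564 and 609 FPKM in control and 334, 283 and 277 in DSS replicates 1, 2 and 3. Its control libraries were tight and its DSS libraries all far lower. Means were 589 ± 23.3 and 298 ± 31.0 (SD, n = 3), 50.6% of the control level, and the log2 change was −0.99 ± 0.20 (SE, 95% interval −1.43 to −0.54), which did not pass either (limma adjusted p = 0.118). Fyco1, the gene around it, measured 7.10 to 9.80 and 5.62 to 8.25 FPKM, far below Cxcr6 in every library.

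**Figure D3:**
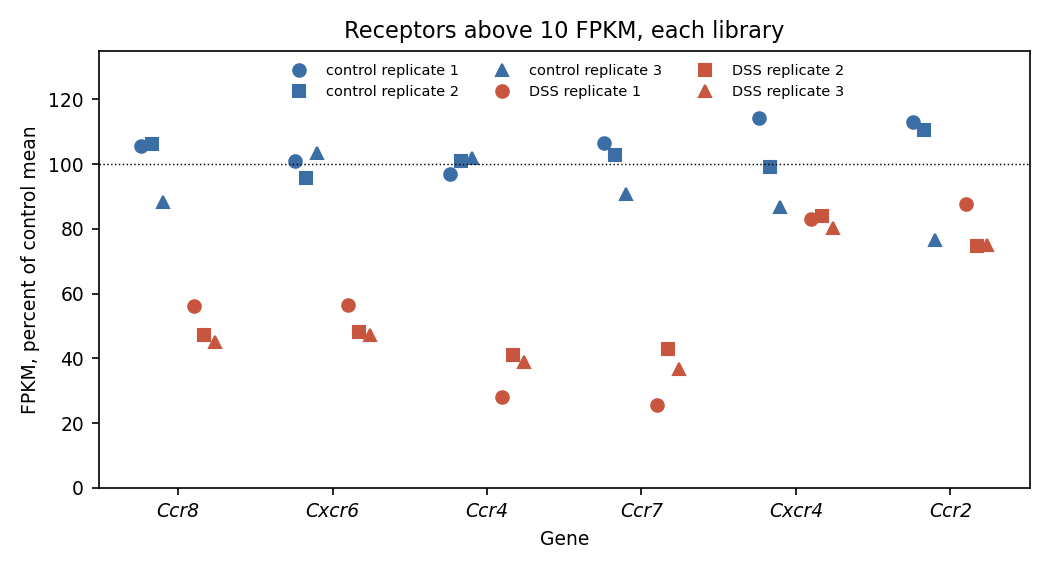
FPKM of the 6 receptors above 10 FPKM in each library, as a percent of the gene's control mean (dotted line at 100). In DSS libraries Ccr8 and Cxcr6 sit at 44.9% to 56.6%, Ccr4 and Ccr7 at 25.7% to 42.8%, and Cxcr4 and Ccr2 at 74.6% to 87.7%.

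Ccr4, Ccr7, Ccr8 and Cxcr6 had the 4 lowest log2 changes, of unequal size. As the plot of percent of control mean shows, Ccr4 and Ccr7 were lower relative to control than Ccr8 and Cxcr6 in each DSS library. Ccr4 was 4.92%, 5.08% and 6.19% of Ccr8 in control and 2.69%, 4.66% and 4.62% in DSS replicates 1, 2 and 3. Ccr7 was 5.82%, 5.57% and 5.93% of Ccr8 in control and 2.64%, 5.23% and 4.72% in DSS replicates. Neither ratio overlapped between the groups, while the ratio of Cxcr6 to Ccr8 did (18.3% to 23.8% and 20.5% to 21.3%). Against Cxcr6, Ccr4 did not overlap (25.3% to 27.8% and 13.1% to 22.5%) and Ccr7 did (24.9% to 30.5% and 12.9% to 25.3%). Within the DSS group, replicate 1 had the lowest Ccr4 and Ccr7 and the highest Ccr8 and Cxcr6. These ratios were chosen after the values were seen and were not tested.

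The calls for Ccr4 and Ccr7 lay near the threshold and depended on single libraries. Without control replicates 1, 2 and 3 the limma adjusted p was 0.373, 0.314 and 0.180 for Ccr4 and 0.373, 0.327 and 0.173 for Ccr7. Without DSS replicate 2 it was 0.135 and 0.128, and without DSS replicate 3 it was 0.0444 and 0.0619. Without DSS replicate 1, Ccr4, Ccr7, Ccr8 and Cxcr6 all passed (limma adjusted p = 8.13e-04, 1.01e-03, 4.09e-03 and 1.46e-03), as 2.31% of all tested genes then did in the same direction. With the replicate number as a block the values were 0.0547 and 0.0707, and without both replicates 3 they were 0.272 and 0.285. Members called lower are set here beside the share of all tested genes called lower in the same fit. There were 2 with pseudocounts of 0.1 (0.156%) and 5 (0.164%), no filter (0.0705%), a mean of at least 5 FPKM (0.327%), robust variances (0.148%), voom on library totals (0.123%) and an adjusted p under 0.1 (0.287%). There was 1 after quantile normalization (0.0903%), which was Ccr8, and 1 without DSS replicate 3 (0.0821%), which was Ccr4. There were 4 with gene-by-gene library weights (3.15%). With library weights 5 were lower (15.0% of all genes) and Ccr6 was higher (12%). There were 0 with an equal total (0.0656%), median-of-ratios scaling (0.0328%), no variance trend (0.00821%), the block (0.0821%) and voom on scaled fragments (0.041%). There were also 0 without control replicate 1, 2 or 3 (0.00821% each), without DSS replicate 2 (0.0164%) and without both replicates 3 (0.0%).

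Under none of the 21 alternatives did any of these 4 genes change direction, with log2 changes of −1.58 to −1.28 for Ccr4, −1.68 to −1.24 for Ccr7, −1.28 to −0.95 for Ccr8 and −1.07 to −0.91 for Cxcr6. For each of the 4, every DSS library lay below every control library. Leaving out libraries, or changing the pseudocount, filter, variance settings, weights or block, could therefore not reverse the direction.

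**Figure D4:**
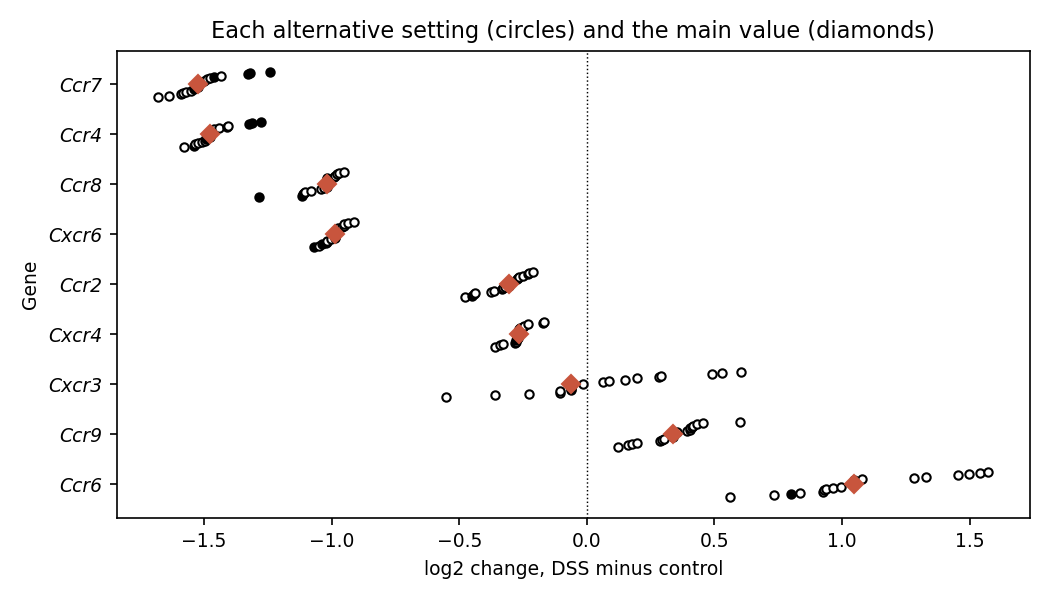
Log2 change of each tested receptor in the reported fit (red diamonds) and under each alternative setting (circles, filled where the adjusted p was under 0.05). Circles of Ccr4, Ccr7, Ccr8 and Cxcr6 all lie left of −0.9, those of Ccr2 and Cxcr4 between −0.5 and 0, and those of Cxcr3 on both sides of 0.

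Cxcr4 and Ccr2 were at intermediate levels and differed little between the groups. Cxcr4, the receptor for CXCL12, measured 76.4, 66.2 and 58.1 FPKM in control and 55.6, 56.3 and 53.7 in DSS replicates 1, 2 and 3. The groups did not overlap, but the lowest control library was close to the DSS libraries, which were tight. The log2 change was −0.27 ± 0.19 (SE, 95% interval −0.70 to 0.17, limma adjusted p = 0.772). Ccr2, the receptor for CCL2 on monocytes and some lymphocytes, measured 22.2, 21.7 and 15.0 in control and 17.2, 14.6 and 14.7 in DSS replicates. Control replicate 3 lay among the DSS libraries, and the log2 change was −0.30 ± 0.22 (SE, 95% interval −0.80 to 0.19, limma adjusted p = 0.774). Their intervals allow falls of 0.70 and 0.80 on the log2 scale as well as small rises. As a share of the 10-receptor sum, Cxcr4 was 1.71% ± 0.140 in control and 2.87% ± 0.230 in DSS libraries, and Ccr2 0.498% ± 0.0678 and 0.803% ± 0.0204 (SD, n = 3 each).

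Ccr6, the receptor for CCL20, was the 1 member with a higher value by more than 1 on the log2 scale, and it did not pass. It measured 1.44, 1.80 and 6.80 FPKM in control and 8.13, 4.60 and 8.18 in DSS replicates 1, 2 and 3. Control replicate 3 lay inside the DSS range, so the groups overlapped. The log2 change was 1.05 ± 0.44 (SE, 95% interval 0.07 to 2.02, limma adjusted p = 0.497), and it ran from 0.56 to 1.57 over the alternatives. The fragments behind it numbered 56 to 214 per library. Ccr6 is also known from ILC3s and B cells. Of 5 ILC3 markers all were above 1 FPKM in every library, with a summed level of 171 to 284 in control and 70.6 to 310 in DSS libraries. Il22 made up most of this sum in every library. Of 6 B cell and plasma cell markers, 2 were at 1 FPKM or more in every library, and their sum of 23.2 to 34.96 and 42.6 to 189 was mostly Jchain in DSS libraries. The part of these cells in the Ccr6 values was not tested.

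Ccr9, the small intestinal homing receptor for CCL25, measured 2.55 to 4.32 FPKM in control and 2.95 to 6.69 in DSS libraries (log2 change 0.34 ± 0.32 SE, 95% interval −0.37 to 1.04, limma adjusted p = 0.828). Its groups overlapped, and its gene shares exon sequence with Slc6a20a (22 bp), a noncoding gene, Gm17200, and an overlapping transcript, so that not every fragment need be its own. Cxcr3, the receptor for CXCL9 and CXCL10, measured 0.395 to 3.42 and 0.972 to 2.32 FPKM on 16 to 77 fragments, and its log2 change of −0.06 ± 0.49 (SE, limma adjusted p = 0.988) turned positive in 9 of 20 alternatives. Cxcr5, the receptor for CXCL13, measured 0.297 to 1.01 and 0.352 to 0.870 on 15 to 54 fragments and shares 110 bp of exon with Bcl9l on the opposite strand. In DSS replicate 3, 34.8% of 1103 olfactory receptor genes were at or above the Cxcr5 level and 32.3% at or above that of Cxcr3. For the 7 members other than Cxcr5, Cxcr3 and Ccr9 this share was at most 0.363% in any library, and for Ccr9 at most 0.725%. For Cxcr5 the share was 9.61% and 19.7% in control replicates 2 and 3 and 14.7% and 7.07% in DSS replicates 1 and 2, and 0.816% in control replicate 1. For Cxcr3 it was at most 2.27% outside DSS replicate 3.

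Of the 10 genes, 6 lie on chromosome 9, among them Ccr9, Cxcr6 and Ccr2 in a cluster with other chemokine receptor genes. Cxcr6 and Ccr2 lie within 307 kb. Members of this cluster did not move alike. Between Cxcr6 and Ccr2, the dendritic cell receptor gene Xcr1 measured 5.23, 8.13 and 5.73 FPKM in control and 0.988, 1.79 and 2.91 in DSS replicates 1, 2 and 3, with no overlap (log2 change −1.38 ± 0.32 SE, limma adjusted p = 0.156). Ccr1 and Ccr3 were at 1.71 FPKM or lower in every library. Fyco1 and Lztfl1, which are not receptors, had log2 changes of −0.31 and 0.04 (limma adjusted p = 0.787 and 0.981).

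**Figure D5:**
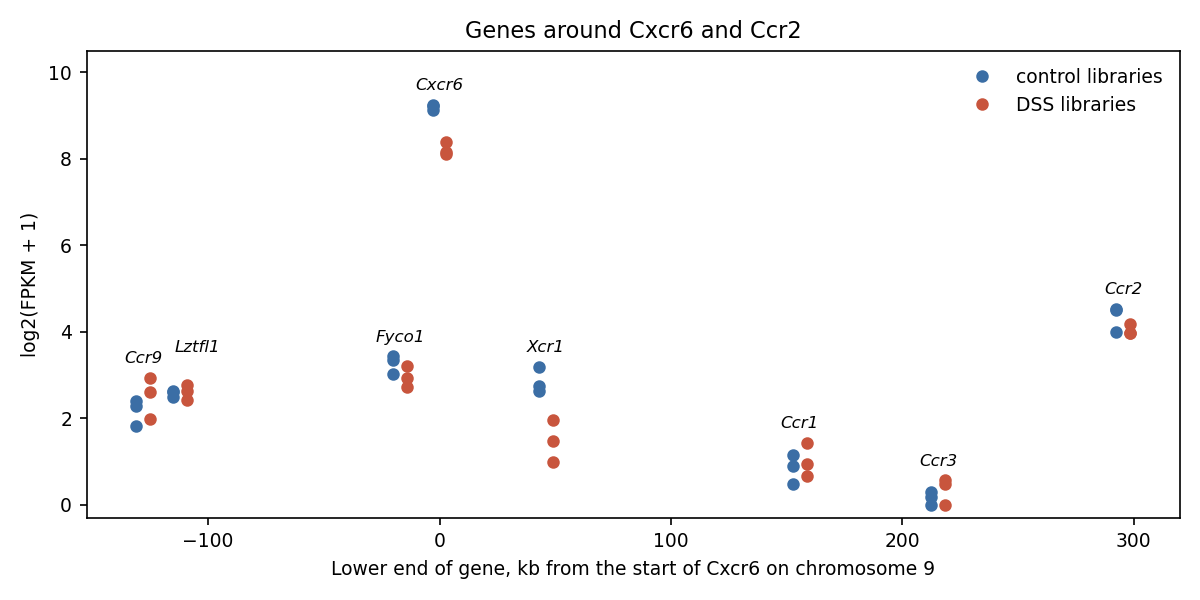
Level of each gene from Ccr9 to Ccr2 on chromosome 9, as log2(FPKM + 1) in each library, against the distance of the gene's lower end from the start of Cxcr6 in kilobases (blue control, red DSS). Cxcr6 stands far above its neighbours in both groups, and Cxcr6 and Xcr1 are the 2 genes whose groups do not overlap.

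Other receptors of the family were mostly at low levels. Of 8 further conventional receptors, 2 were tested, Xcr1 and Cx3cr1, the fractalkine receptor gene (1.81 to 2.80 and 0.861 to 2.38 FPKM), and 0 passed (limma, with Xcr1 alone at an unadjusted p under 0.05, and 0 by voom). Among all 12187 tested genes, 1096 had an unadjusted limma p under 0.05. The neutrophil receptor gene Cxcr2 was at 0.845 FPKM or lower in every library, including the DSS libraries with neutrophil transcripts. Of 5 atypical receptors, which bind chemokines without steering cells, 3 were tested and 0 passed (1 at an unadjusted limma p under 0.05, 0 by voom). Ccrl2, an atypical receptor that holds chemerin at the cell surface, was the abundant one, at 257, 252 and 213 FPKM in control and 125, 179 and 198 in DSS replicates 1, 2 and 3. Its groups did not overlap (log2 change −0.54 ± 0.23 SE, limma adjusted p = 0.508). Ackr1 measured 0.978 to 5.71 and 3.07 to 10.9, and Ackr3 0.307 to 2.09 and 0.425 to 3.55, with overlap.

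Of 16 ligands of the 10 receptors, 8 were tested and 0 passed (limma, 0 by voom), with 3 lower, 5 higher and a median log2 change of 0.15. At an unadjusted limma p under 0.05 there were 2, beside 1096 of all 12187 tested genes. Without DSS replicate 1, 1 of the 8 passed as lower, where 2.31% of all tested genes did. Ccl1, which encodes a CCR8 ligand, was abundant in the same libraries as Ccr8. It measured 293, 255 and 211 FPKM in control and 207, 92.8 and 61.9 in DSS replicates 1, 2 and 3. DSS replicate 1 was just below the lowest control library, so the groups barely separated (log2 change −1.23 ± 0.38 SE, limma adjusted p = 0.308). Cxcl10, a CXCR3 ligand gene, measured 330 to 432 and 183 to 538 and overlapped. Ccl2, a CCR2 ligand gene, measured 1.64 to 3.06 and 3.71 to 6.27 without overlap (log2 change 0.82 ± 0.30 SE, limma adjusted p = 0.419). Cxcl16, the CXCR6 ligand gene, measured 5.34 to 5.43 and 1.43 to 6.16. The other tested ligand genes, Ccl7 (CCR2), Ccl25 (CCR9), Cxcl9 (CXCR3) and Cxcl12 (CXCR4), overlapped between the groups, with log2 changes of 0.61, 0.03, 0.63 and 0.26. Ligands of CCR4 and CCR7 were near or at the bottom of the table, with Ccl17 at 1.16 or lower, Ccl22 at 0 to 1.52 in all but control replicate 3, and Ccl19 and Ccl21a listed at 0 in every library.

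Of 27 genes that act downstream of the receptors 21 were lower and 6 higher, where 46.9% of all tested genes were lower. Among genes with a mean of at least 5 FPKM, which most of the 27 had, 58.9% were lower. The median log2 change of the 27 was −0.15, against 0.03 for all tested genes and −0.08 for those with at least 5 FPKM. Of the 27, 0 passed (limma, 0 by voom), and 3 had an unadjusted limma p under 0.05, as 1096 of all 12187 tested genes did. With voom, without DSS replicate 3 and without both replicates 3, 22 of the 27 were lower (49.4%, 59.7% and 52.0% of all tested genes). Without DSS replicate 1, 16 were lower (38.8% of all), the median was −0.05 where that of all tested genes was 0.12, and 1 passed. Gnai3, an inhibitory G protein subunit gene, measured 46.9 ± 3.95 and 27.3 ± 5.23 (SD, n = 3) without overlap (log2 change −0.77, limma adjusted p = 0.224). Gnai2, the main inhibitory subunit of lymphocytes, measured 237, 192 and 168 in control and 76.4, 159.8 and 174 in DSS replicates 1, 2 and 3, so that DSS replicate 1 stood below the other 5 libraries. Gng2, a gamma subunit gene, was highest in that library, at 39.4 against 11.6 to 18.1 elsewhere. Rasgrp2, an exchange factor that activates integrins through RAP1, measured 4.22 ± 0.520 and 8.89 ± 2.28 (SD, n = 3), higher in 3 of 3 DSS libraries without passing (limma adjusted p = 0.224). Of 14 genes that end the signal, 8 were lower and 6 higher, and 0 passed (limma, 1 at an unadjusted p under 0.05, 0 by voom). Rgs18, which speeds the shut-off of G proteins, measured 4.88 to 8.59 and 1.901 to 5.67 (log2 change −0.79, limma adjusted p = 0.537). Grk6, a receptor kinase gene, and Rgs10 had log2 changes of −0.49 and −0.35 with overlap, and Grk5 0.36 without (limma adjusted p = 0.743, 0.751 and 0.873). Grk2 measured 38.3 to 42.7 and 27.0 to 50.6, and Rgs1, which damps inhibitory G protein signals, 598 to 680.3 and 413 to 975. Tpst2, which encodes the enzyme that sulfates tyrosines of chemokine receptors, measured 137, 159 and 141 in control and 69.1, 102 and 103 in DSS replicates 1, 2 and 3, without overlap (log2 change −0.69 ± 0.22 SE, limma adjusted p = 0.330), and Tpst1 2.05 to 5.45 and 2.32 to 4.52.

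Of 12 further homing receptors 8 were tested, 4 lower and 4 higher, and 0 passed (limma, 0 by voom). At an unadjusted limma p under 0.05 there were 2, beside 1096 of all 12187 tested genes. Without DSS replicate 1, 1 of the 8 passed as higher, where 132 of all tested genes did. S1pr1, the receptor for exit into lymph, measured 7.88 to 9.20 and 2.87 to 7.28 without overlap (limma adjusted p = 0.483). Gpr18, a lipid receptor gene of intestinal lymphocytes, measured 2.28 to 6.04 and 7.23 to 13.98 without overlap (limma adjusted p = 0.247). S1pr4, another sphingosine-phosphate receptor gene, measured 9.08 to 11.01 and 8.53 to 22.5, and Gpr15, a colon homing receptor gene, 1.34 to 2.24 and 0.363 to 2.93. Gpr183, a receptor for oxysterols that places lymphocytes in the gut, measured 228 to 245 and 166 to 355 and overlapped.

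Markers of other cells that carry these receptors are given here beside the receptors. Ccr7 and Xcr1 are known from dendritic cells, whose 8 markers summed to 10.1 to 16.4 FPKM in control and 7.35 to 19.9 in DSS libraries. Among them Zbtb46 measured 8.36 to 9.82 and 1.48 to 5.32 without overlap (log2 change −1.29, limma adjusted p = 0.196). The other tested ones, Batf3 and Cacnb3, overlapped, with log2 changes of 0.21 and 0.42. Flt3 (0.0650 to 0.651 and 0.962 to 2.18) and Fscn1 (0.204 to 0.253 and 0.273 to 1.55) were higher in every DSS library. Both had a mean under 1 FPKM, were not tested and were highest in DSS replicate 3. Clec9a was at 0.782 or lower. Ccr4 and Ccr8 are known from regulatory T cells, and Foxp3, which defines those cells, was at 0.852 FPKM or lower in every library. The 8 T cell markers measured summed to 23.3 to 33.5 and 21.8 to 62.7. Macrophage markers summed to 12.2 to 16.99 and 20.1 to 43.2, and epithelial markers to 11.6 to 18.5 and 24.9 to 32.8. Stromal markers summed to 17.6 to 28.2 and 9.65 to 23.7, and ILC1 and NK cell markers to 283 to 371 and 117 to 324. Nkg7 made up most of the ILC1 and NK cell sum in every library. Its log2 change was −0.95 and that of Tbx21 −0.57, while Prf1, Gzma and Klrb1c had 0.39, 0.35 and 0.15, all with overlap. The 12 ILC2 markers went both ways, 9 lower and 3 higher, and Il5, the interleukin-5 gene, was the 1 that passed. It measured 359 ± 11.5 and 66.0 ± 7.50 (SD, n = 3, limma adjusted p = 8.66e-04, and 0.0645 without both replicates 3). Rora, an ILC2 transcription factor gene, measured 154 ± 16.7 and 78.3 ± 15.9 (limma adjusted p = 0.140), and Calca, a neuropeptide gene, was higher in every DSS library (log2 change 0.65, limma adjusted p = 0.483). For 5 of the 12, Il5, Rora, Gata3, Icos and Il13, every DSS library lay below every control library, as for 9.6% of all tested genes. For 1, Calca, every one lay above, as for 6.35%. Gata3, Icos and Il13 had log2 changes of −0.78, −0.86 and −0.76 (limma adjusted p = 0.497, 0.158 and 0.312). Without DSS replicate 1, 5 of the 12 passed as lower, where 2.31% of all tested genes did. The part of cell composition in the receptor values was not tested.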

How the data were processed

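RNA of sorted colonic ILC2s (3 control and 3 DSS libraries) was extracted with TRIzol, copied with a SMART-Seq HT kit and made into paired-end Nextera XT libraries, per the labels' protocols. The submitters' processing notes name Cutadapt 1.9, HISAT2 2.2.1 and mm10. How fragments were counted, and over which annotation, is not given in the sources used here. FPKM values of 23268 genes are as the authors deposited them, with columns assigned by sample title.

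Each gene's FPKM values were whole multiples of a step, which gave whole fragments (tolerance 0.001) for 22701 of 22701 genes above 0. For a gene above 0 in 1 library this holds whatever its value. In only a few libraries a match can also arise without real counts, since many multiples were tried. Of 13957 genes above 0 in all libraries, 13957 gave whole fragments. Log2(FPKM + 1) of genes with a mean of at least 1 FPKM was tested with limma 3.58.1 in R 4.3.3 (eBayes with a trend, two-sided), Benjamini-Hochberg adjustment over all of them and a threshold of 0.05. In a simulated DSS against control comparison of 12177 genes, the test found 39.8% of the 88 genes with a 4-fold change and 4.95% of the 101 with a 2-fold change, and called 2 others. The simulated noise was drawn for each gene alone, without the shifts across whole libraries seen here. These rates, and the number of false calls, need not hold for the data.

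Deviations from the group mean correlated at 0.189, 0.262 and 0.545 for same-numbered libraries, each above 0.1, so the numbers were taken to pair them. This comes from the data, not the labels. The value was 0.345 for control replicate 1 with DSS replicate 2 and 0.101 for control replicate 2 with DSS replicate 1. Exchanging replicates 1 and 2 in 1 group therefore meets the same rule, which does not settle the pairs. The reported fit has no block.

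The 10 members and all gene lists were chosen with earlier results of these data known. Named were all members, their tested ligands, overlapping or neighbouring genes and, per list, genes that passed or had the 4 largest changes. Of the marker lists only genes that passed, defining genes and examples are named. Cxcr2, Ccl17, Ccl22, Grk2, Rgs1, Gpr183 and Ptgdr2, and the marker examples, were chosen after their values were seen. No list was tested. Some items are not reported here. Coordinates are from GENCODE M21 (GRCm38, the same as mm10), 1-based. Library weights by gene-by-gene update and voom on library totals were alternatives chosen after seeing the data. Python 3.11.15, pandas 2.3.3 and matplotlib 3.10.9 made the tables and figures.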

Additional observations from a re-analysis of the deposited data

How the results depend on the processing

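The number of members called was 2, and it was 0 to 4 when 1 library was left out. It was 0 with libraries rescaled to an equal total, with median-of-ratios scaling, without the variance trend, with voom on scaled fragments, and without both replicates 3, and 1 (Ccr8) after quantile normalization. In each of these fits 4 members, Ccr4, Ccr7, Ccr8 and Cxcr6, were lower at an unadjusted limma p under 0.05, as 4.23% to 6.47% of all tested genes were. With the replicate block it was also 0 (limma adjusted p = 0.0547 for Ccr4 and 0.0707 for Ccr7), and the block changed no other member's call. It was 6 with library weights, whose estimation did not converge, and 4 with the gene-by-gene update. The number of all genes called was 27. It was 14, 9, 4 and 5 with an equal total, median-of-ratios scaling, no trend and voom, and 3286 and 635 with the 2 kinds of library weights. It was 5 without both replicates 3, 53 at an adjusted p under 0.1, and 4 to 413 with 1 library left out. The other settings kept both counts within 1.5 times, and the cause of these differences was not tested.

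The Cxcr3 log2 change of −0.06 turned to 0.065 with a pseudocount of 0.1, 0.29 and 0.20 with the 2 kinds of library weights, and 0.53 and 0.61 with voom on scaled fragments and on library totals. It was −0.55 to 0.28 with 1 library left out and 0.49 without both replicates 3. No other tested member changed direction. The log2 ratio of summed FPKM, −1.02, stayed between −1.10 and −0.96 in its alternatives. Cxcr3 and Cxcr5 rest on 15 to 77 fragments per library, which limits their precision.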
